A study of Mus musculus with 12 samples.

Results

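The interaction of Thiamet-G and β-estradiol asks which genes answered an inhibitor of O-GlcNAc removal differently once red cell differentiation had been started. All 12 of the 12 mRNA sequencing libraries entered it. They come from G1E-ER4, a mouse erythroid progenitor line in which β-estradiol (E2) activates a fusion of GATA-1 with the estrogen receptor and the cells mature. The 4 groups have 3 libraries each. Ctrl received neither agent, the TMG group received Thiamet-G at 10 µM, the E2 group received estradiol at 1 µM, and the TMG_E2 group received both at those doses, the treatments lasting 30 h. Every group grew in 15% serum with erythropoietin at 2.5 U/ml, stem cell factor at 50 ng/ml and puromycin at 1 µg/ml, at passages 35 to 40. The interaction is the log2 fold change TMG_E2 / E2 minus the log2 fold change TMG / Ctrl, fitted for the 8273 of 32699 genes with a CPM (a gene's expected count scaled to its library's total) over 10 in at least 2 libraries.

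The study is of a single line, and no group holds cells without the fusion that were given E2, so differentiation and other actions of E2 cannot be told apart. The cell type given in the labels is embryonic stem cell. None of 11 embryonic stem cell markers went over 1 CPM in any library, while each of 10 erythroid markers did in at least 1. The summed erythroid markers were 1787 to 1827 CPM in Ctrl, 2030 to 2115 in TMG, 40874 to 43891 in E2 and 41475 to 45719 in TMG_E2. The libraries held 17589400 to 23178700 expected counts. Spread between replicates was larger in TMG_E2 (chi-square per degree of freedom 6.78 to 10.2 between pairs of libraries) than in the other groups (2.17 to 3.44). The labels do not say whether replicates were separate cultures, so p-values rest on a spread that may be technical.

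O-GlcNAc is a single sugar that OGT attaches to serine and threonine residues of nuclear and cytoplasmic proteins and that OGA removes. Thiamet-G blocks OGA, so the modification builds up. GATA-1 is the master transcription factor of red cell maturation, and with its partners it switches on globin, heme and membrane genes and switches off progenitor genes such as Gata2. Both OGT and OGA are known to associate with GATA-1 complexes.

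The interaction was called for 77 genes (0.931% of the genes tested; edgeR quasi-likelihood test, Benjamini-Hochberg adjusted p under 0.05). It was lower, meaning that the TMG change was less positive or more negative with E2, for 55 genes (0.665%), and higher for 22 (0.266%). Most differences were modest: the median size over the called genes was log2 0.41, a ratio of 1.33, and 7 genes reached 2-fold (1 higher, 6 lower). Of these 7, Gm2016, Il1b, Gm8300 and Gm5662 went over the CPM minimum with E2 alone and Fam198b without E2 alone, while BB287469 and Asic4 went over it in both settings. The count moved with single libraries. It was 23, 25 and 18 without Ctrl replicate 1, 2 and 3, and 22, 19 and 32 without TMG replicate 1, 2 and 3. It was 35, 21 and 20 without E2 replicate 1, 2 and 3, and 78, 44 and 161 without TMG_E2 replicate 1, 2 and 3. In these fits the calls higher ran from 2 without E2 replicate 2 to 52 without TMG_E2 replicate 3, and the calls lower from 14 without Ctrl replicate 3 or TMG replicate 2 to 109 without TMG_E2 replicate 3. None of the 77 genes changed sign in any of the 20 alternative fits, and 13 were called in all of them: Il9r, Prnp, BB287469, Slc7a8, BC057675, Fabp5, Aim1, Ache, Npm3, Asic4, Hba-a2, Pisd-ps3 and Kel.

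Across all genes tested the TMG effects in the 2 settings, which share no library, had a Pearson r of 0.48 and a Spearman rho of 0.51. These are descriptions over genes, which are not independent replicates. TMG changed 426 genes without E2 (5.15%), 249 higher (3.01%) and 177 lower (2.14%), and 1055 with E2 (12.8%), 464 higher (5.61%) and 591 lower (7.14%). With libraries scaled by size alone, the splits were 179 higher and 232 lower without E2, and 348 higher and 764 lower with E2. The count of 426 became 221, 208 and 196 without Ctrl replicate 1, 2 and 3 and 232, 211 and 257 without TMG replicate 1, 2 and 3. The count of 1055 became 682 without E2 replicate 2 and 656 without E2 replicate 3. In both settings 193 genes were called in the same direction, which is 45.3% of the 426 and 18.3% of the 1055. The genes Il9r, Fabp5, Cep164 and Ptpn12 changed in opposite directions. Of 229 genes called without E2 and not with it, 32 were called for the interaction, and of 858 called with E2 and not without it, 39 were. For the rest of both sets the test of the difference did not pass the threshold, so a change in 1 setting alone was not shown for them.

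**Figure D1:**
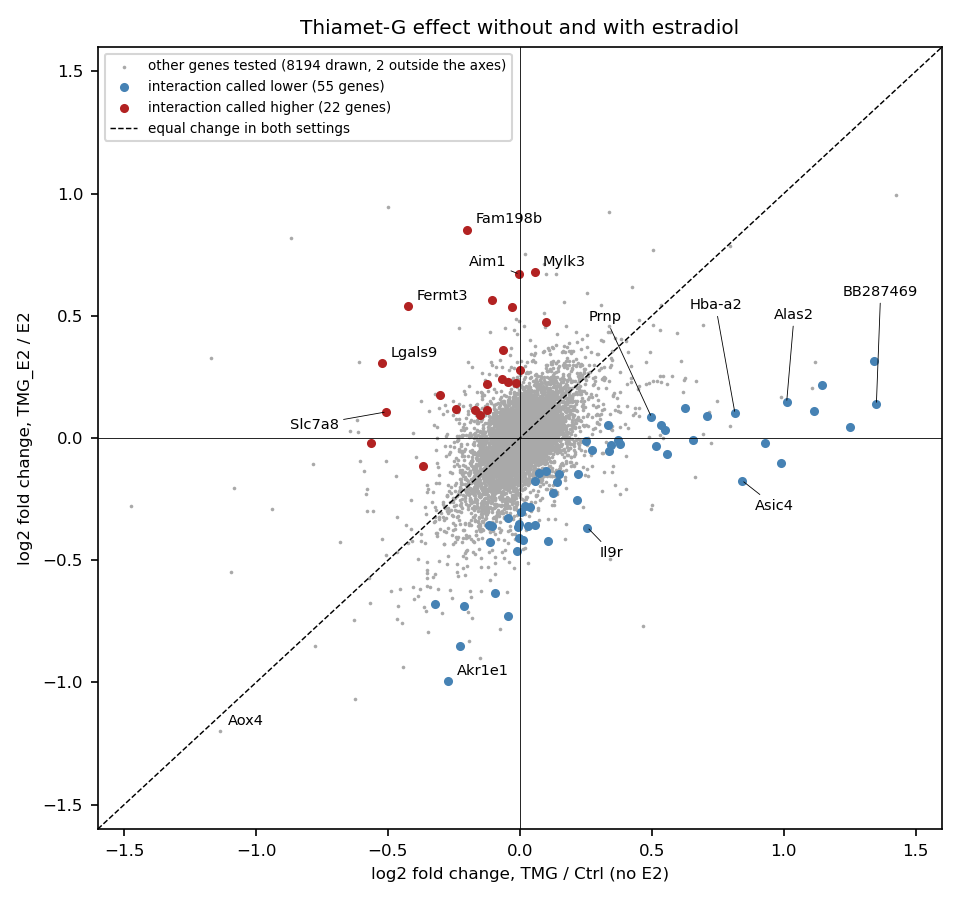
Each point is a gene, with the log2 fold change TMG / Ctrl on the x axis and TMG_E2 / E2 on the y axis. The 55 genes called lower (blue) lie below the dashed line of equal change and the 22 called higher (red) above it, while Aox4, which fell in both settings, lies close to it.

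The genes called lower fall into 2 main patterns: 24 rose with TMG in uninduced cells and were not called with E2, and 26 fell with TMG in E2-treated cells and were not called without it. Of the 22 called higher, 13 rose with TMG in E2-treated cells and 8 fell with TMG in uninduced cells, each without a call in the other setting. A further 3 genes called lower (Il9r, Fabp5, Cep164) and 1 called higher (Ptpn12) changed in opposite directions. The last 2 changed in the same direction by different amounts on the log2 scale, where Alas2 rose less with E2. Slc25a4, the heart and muscle form of the mitochondrial ADP/ATP carrier, fell more with E2 on that scale (-0.68 ± 0.06 against -0.32 ± 0.05). Its interaction was called in 1 of 12 fits that left out a library. In CPM Alas2 rose more with E2 (by 70.2 against 2.21). Slc25a4 fell less in CPM, from 37.7 to 23.6 with E2 against 149 to 120 without it. Of the genes called lower, 7 went over the CPM minimum with E2 alone and 3 without E2 alone, and of those called higher 0 and 2 did.

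Same-numbered E2 and TMG_E2 libraries deviated together, and with the replicate number as a block over all 4 groups the interaction was called for 171 genes. In that fit 8 of the 77 genes gained a call for the TMG effect with E2 and 0 lost one. TMG_E2 was then higher for Kel (log2 0.12 ± 0.03, adjusted p = 0.0124), Lgals9 (0.31 ± 0.09, 0.0228), Slc3a2 (0.12 ± 0.04, 0.0319) and Optn (0.17 ± 0.05, 0.0328). It was also higher for BB287469 (0.13 ± 0.04, 0.0306), Gm8300 (0.31 ± 0.08, 0.0181) and Il1bos (0.21 ± 0.07, 0.0410), and lower for Add2 (-0.11 ± 0.03, 0.0188). Each of these genes differed in the same direction in all 3 same-numbered pairs, so their sorting into the patterns above holds for the fit without the block.

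**Figure D2:**
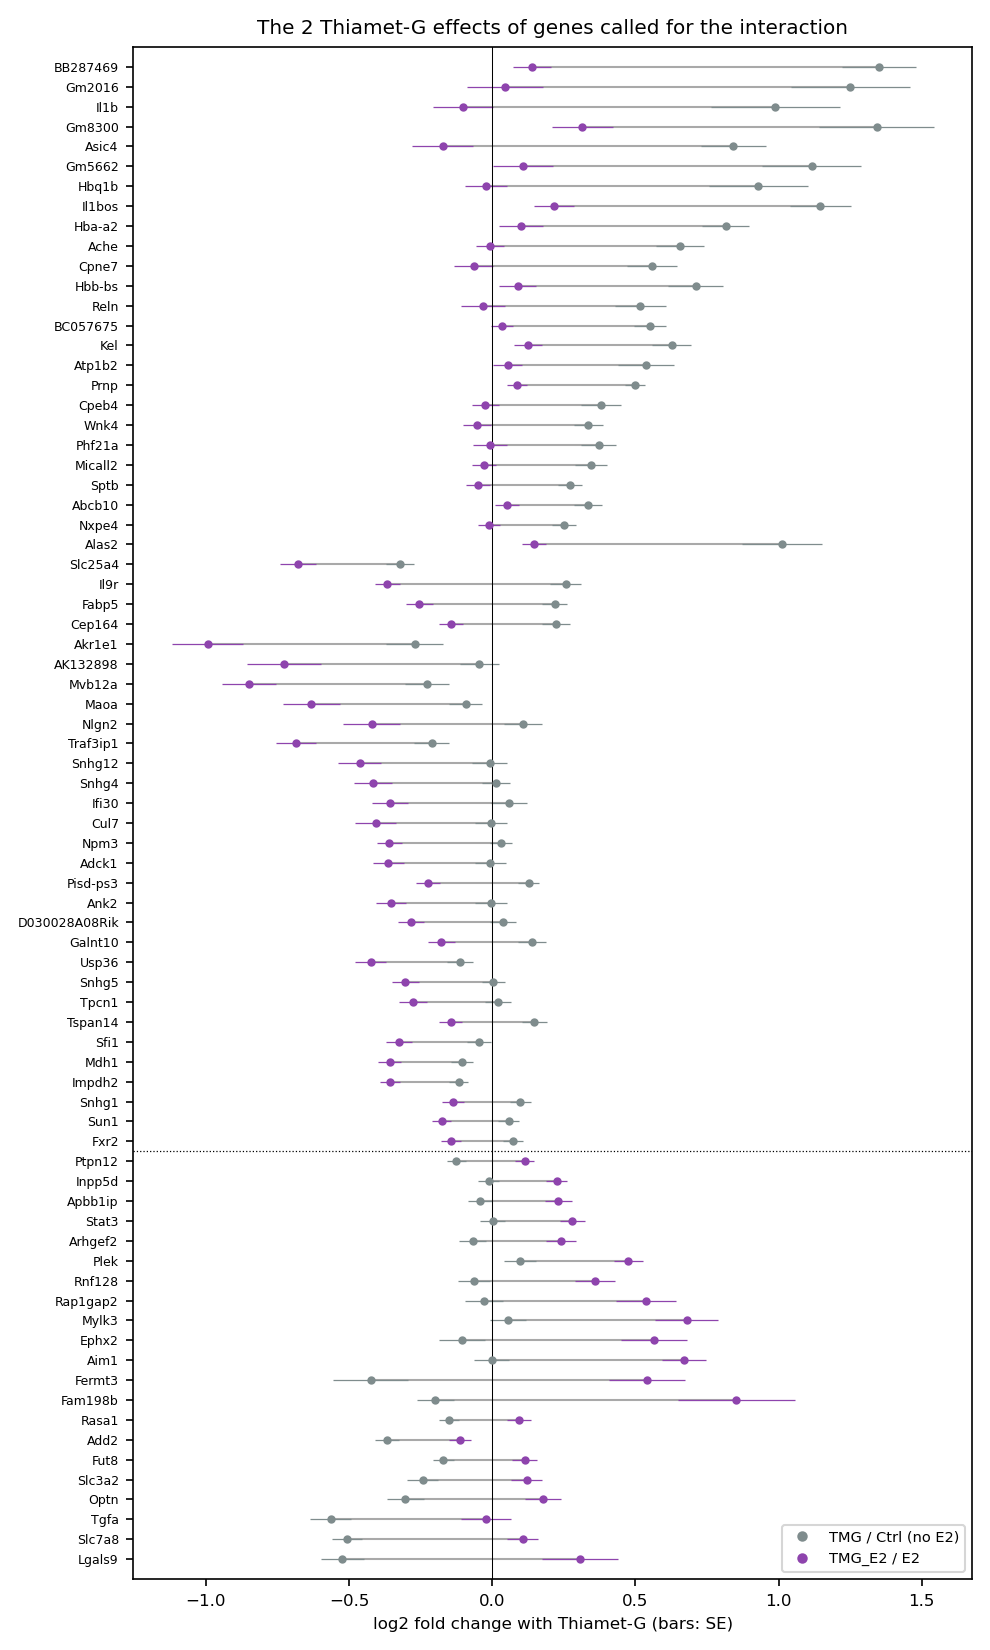
Each row is 1 of 76 of the 77 genes called for the interaction, with the log2 fold change of TMG ± SE without E2 (grey) and with E2 (purple). Above the dotted line are the 55 genes called lower, where purple lies left of grey, and below it 21 called higher, where purple lies right of grey.

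Among the genes called lower were members of the lists of globins, heme synthesis and the red cell membrane, and all 6 of them (Hba-a2, Hbb-bs, Alas2, Abcb10, Kel and Sptb) rose with TMG in uninduced cells. The RefSeq sequence (GRCm38.p6) of the 250 bases before the start site is shown for 4 of them and for the cytokine receptor gene Il9r. These were picked by hand and have a GATA motif there, as other called genes do, and Abcb10 and Sptb were not among the genes picked. Capitals mark 2 motifs on either strand, which overlap nowhere in these windows. The motif of GATA factors was searched as AGATAA, then as its variant ending in G, which is AGATAG, and with T as its first letter in both cases, so that TGATAA as well as the variant TGATAG counted. The CACCC element that KLF factors bind was searched as CCACACCC and in the form CCACGCCC.
Hba-a2, chr11:32296242-32296491 (+ strand): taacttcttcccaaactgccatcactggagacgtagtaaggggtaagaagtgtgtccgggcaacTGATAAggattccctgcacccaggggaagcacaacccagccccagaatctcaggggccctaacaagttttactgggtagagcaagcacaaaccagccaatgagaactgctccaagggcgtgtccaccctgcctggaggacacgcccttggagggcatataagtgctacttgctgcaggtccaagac
Hbb-bs, chr7:103827929-103828178 (- strand): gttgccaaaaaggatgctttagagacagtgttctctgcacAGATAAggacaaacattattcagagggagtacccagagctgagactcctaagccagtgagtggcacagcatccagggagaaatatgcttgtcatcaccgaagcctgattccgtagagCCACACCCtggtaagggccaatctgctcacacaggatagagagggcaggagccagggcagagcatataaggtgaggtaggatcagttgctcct
Alas2, chrX:150547167-150547416 (+ strand): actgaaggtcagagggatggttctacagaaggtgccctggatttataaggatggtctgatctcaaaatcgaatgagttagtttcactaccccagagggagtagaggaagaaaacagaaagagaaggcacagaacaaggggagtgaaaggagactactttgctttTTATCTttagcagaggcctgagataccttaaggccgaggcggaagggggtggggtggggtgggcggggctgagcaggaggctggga
Kel, chr6:41704326-41704575 (- strand): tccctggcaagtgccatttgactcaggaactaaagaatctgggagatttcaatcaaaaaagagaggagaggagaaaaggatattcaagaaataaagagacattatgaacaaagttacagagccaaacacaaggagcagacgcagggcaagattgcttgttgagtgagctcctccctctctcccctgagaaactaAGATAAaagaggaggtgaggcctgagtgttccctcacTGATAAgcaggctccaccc
Il9r, chr11:32200280-32200529 (- strand): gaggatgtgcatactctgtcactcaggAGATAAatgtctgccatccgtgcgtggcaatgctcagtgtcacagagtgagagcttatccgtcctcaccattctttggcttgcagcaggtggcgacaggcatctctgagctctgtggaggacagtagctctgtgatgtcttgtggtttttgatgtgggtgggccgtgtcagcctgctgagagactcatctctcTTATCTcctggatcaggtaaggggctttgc
Hba-a2 has TGATAA 186 bases before its start site. Hbb-bs has AGATAA at 210 bases and CCACACCC at 93 bases before its own. Alas2 has AGATAA on the opposite strand at 86 bases. Kel has AGATAA at 56 bases and TGATAA at 19 bases. Il9r has AGATAA at 223 bases and, on the opposite strand, at 30 bases before 1 of its start sites. In windows of 300 bases, from 250 before to 50 after the start, a GATA motif was in 17.8% of 8084 windows of tested genes and in 29.8% of all 32851 windows. The GATA motif was in 25 of 76 windows (32.9%) of all called genes. It was in 7 of 18 windows (38.9%) of the genes that rose with TMG without E2 only, in 5 of 27 (18.5%) of those that fell with E2 only, and in 9 of 27 (33.3%) of those called higher. The CACCC motif was in 13.4% of windows of tested genes and in 3 of 18 (16.7%) of the first set. A total of 59 of the 77 called genes had a window. Among them, the windows of Slc7a8, Prnp and Ache, not shown here, held neither motif. A match describes letters in these windows, and binding was not measured.

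Among globin genes, 4 of 10 listed passed the expression filter and 2 were called, both lower (0.665% of all genes). The list's median interaction was log2 -0.57, beside -0.01 over all genes tested. Of the 4, 2 went over the CPM minimum with E2 alone, and the 2 called genes went over it in both settings. Hba-a2, an adult alpha globin gene (chromosome 11, 32296492 to 32297310), stood at 236, 213 and 232 CPM in Ctrl and at 375, 407 and 417 CPM in TMG. In E2 it stood at 15713, 16383 and 15444 CPM and in TMG_E2 at 14238, 17841 and 18910.5 CPM. Every TMG library was above every Ctrl library, while TMG_E2 replicate 1 was below all E2 libraries and the other two above them. The interaction was log2 -0.71 ± 0.11 (adjusted p = 0.00536), from a TMG effect of 0.82 ± 0.08 without E2 (adjusted p = 2.00e-05) and 0.10 ± 0.08 with E2 (adjusted p = 0.427).

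Hbb-bs encodes an adult beta globin (chromosome 7, 103826523 to 103827928) and stood at 21.2, 17.8 and 18.0 CPM in Ctrl and 35.3, 30.3 and 27.3 CPM in TMG. The E2 libraries were at 20736, 20518 and 18526 CPM and the TMG_E2 libraries at 20567, 21198 and 21800.1 CPM. The groups without E2 did not overlap, and those with E2 did. The interaction was log2 -0.62 ± 0.12 (adjusted p = 0.0207), between 0.71 ± 0.10 without E2 and 0.09 ± 0.06 with it. This call was lost without Ctrl replicate 2 (adjusted p = 0.0575), Ctrl replicate 3 (0.0851), E2 replicate 2 (0.0636), TMG replicate 1 (0.0731) or TMG replicate 2 (0.0603). Hbb-b2, which went over the CPM minimum in E2 and TMG_E2 alone, was at -0.52 ± 0.29 (adjusted p = 0.542). Hbq1b, a theta globin gene that was not on the list, went from 1.23 ± 0.128 to 2.35 ± 0.285 CPM (SD, n = 3) without E2 and from 26.8 ± 0.774 to 26.5 ± 2.35 CPM with it. Its interaction was -0.95 ± 0.19 (adjusted p = 0.0294), called in 4 of 12 fits that left out a library. Hbq1b went over the CPM minimum with E2 alone, and its summed counts without E2 were 80 in Ctrl and 138 in TMG. Per length, mean levels in E2 were 59068 TPM for Hbb-bs, 55927 TPM for Hba-a2 and 64.4 TPM for Hbq1b. Globin genes have near copies: the Hba-a2 transcript shares 99.8% of 538 aligned bases with Hba-a1 and that of Hbb-bs 95.0% of 582 with Hbb-bt, so how reads were shared out between copies is uncertain. In these bulk samples, more cells making a transcript and more transcript in each cell cannot be told apart.

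On the heme synthesis list all 14 genes were tested, 2 were called lower (0.665% of all genes) and none higher, and 12 values were below 0 (4499 of 8273 over all genes; median log2 -0.15). Alas2, the erythroid first enzyme of the pathway (chromosome X, 150547417 to 150570622), stood at 1.70, 2.26 and 2.53 CPM in Ctrl and 4.22, 5.00 and 3.92 CPM in TMG, where 3 counts are worth 0.13 to 0.17 CPM. It stood at 638, 671 and 661 CPM in E2 and 717, 719 and 745 CPM in TMG_E2. Neither pair of groups overlapped, and the rise was the larger in uninduced cells: log2 1.01 ± 0.14 (adjusted p = 0.000488) against 0.15 ± 0.04 (adjusted p = 0.028). The interaction of -0.86 ± 0.15 (adjusted p = 0.00986) was lost without TMG replicate 2 (adjusted p = 0.0579), and no library without E2 went over the CPM minimum for this gene. Abcb10, a mitochondrial transporter needed for heme production, was at -0.28 ± 0.06 (adjusted p = 0.0455), a call kept in 2 of 12 fits that left out a library and lost under both other scalings (adjusted p = 0.0583 with RLE size factors, 0.0712 with library size alone) and with filterByExpr (0.0590). It went from 67.0 ± 2.88 to 84.4 ± 2.27 CPM without E2 and from 1098 ± 26.2 to 1138 ± 58.9 CPM with it. Slc25a38, a mitochondrial glycine carrier, was not called, at -0.21 ± 0.06 (adjusted p = 0.154).

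Of 21 red cell membrane and blood group genes 19 were tested, with 2 called lower (0.665% of all genes) and 1 called higher (0.266%). The values of 14 were below 0 (4499 of 8273 over all genes), with a median of log2 -0.13. Of the 19, 4 went over the CPM minimum with E2 alone. Kel, the Kell blood group protein gene (chromosome 6, 41686329 to 41704334), stood at 22.7, 22.5 and 21.8 CPM in Ctrl and 36.9, 33.5 and 32.9 CPM in TMG. Levels were 262, 245 and 233 CPM in E2 and 286, 262 and 257 CPM in TMG_E2. The groups separated without E2 and overlapped with it, although each TMG_E2 library was above the E2 library of its number. The interaction was -0.50 ± 0.08 (adjusted p = 0.00918), between 0.63 ± 0.07 and 0.12 ± 0.05. Sptb, erythroid beta spectrin (chromosome 12, 76580488 to 76710547), stood at 396, 392 and 395 CPM in Ctrl and 481, 470.3 and 477 CPM in TMG. With E2 it stood at 4325, 4331 and 4285 CPM, and with both agents at 4159, 4439.6 and 3904 CPM, a range that spans the E2 libraries. Its interaction was -0.32 ± 0.06 (adjusted p = 0.0201), called in 4 of 12 fits that left out a library. Add2, beta adducin of the membrane skeleton, was the member called higher (0.25 ± 0.06, adjusted p = 0.0482, kept in 1 of 12 such fits). It fell with TMG without E2, from 188 ± 8.60 to 146 ± 4.73 CPM, and stood at 433 ± 11.6 and 401 ± 13.8 CPM in E2 and TMG_E2. Slc4a1, the band 3 anion exchanger, had the lowest value of the list at -0.79 ± 0.25 and did not pass the test (adjusted p = 0.173). Its level without E2 was 1.17 CPM in Ctrl and 1.66 CPM in TMG. Scaled by library size alone, it stood at 2055, 2254 and 2138 CPM in E2 and at 1657, 1909 and 1650 CPM in TMG_E2. Every TMG_E2 library was below every E2 library for this gene.

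Hba-a2, Hbb-bs, Alas2, Abcb10 and Kel rose with TMG in uninduced cells from levels far below those in E2, and the sign of their interaction depends on the scale. In CPM, Hba-a2 gained 173 with TMG without E2 and 1149.9 with E2, a difference of 977 ± 1441 (SE) in the other direction. Alas2 gained 2.21 and 70.2 CPM (difference 68.0 ± 13.3), and Kel 12.1 and 21.9 CPM (difference 9.83 ± 12.3). The differences for Hbb-bs and Abcb10 were 1250.0 ± 788 and 22.6 ± 37.3 CPM, so that of these 5 genes the reversal was larger than 2 SE for Alas2 only. Sptb, Hbq1b and Add2 kept their sign. On this scale 10 of the 77 called genes, all called lower, had the opposite sign, and the other 67 had the same sign. The log2 interaction therefore compares proportional changes. Of the 55 genes called lower, 35 stood higher in E2 than in Ctrl and 20 lower. Of the 22 called higher, 3 stood higher and 19 lower. These values share libraries with the interaction and are given as a description.

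Other genes that rose with TMG in uninduced cells and were not called with E2 are not on the erythroid lists. Prnp, the prion protein gene (chromosome 2, 131909928 to 131938436), stood at 98.2, 98.6 and 96.9 CPM in Ctrl and 134, 139 and 142 CPM in TMG. It stood at 158, 156 and 162 CPM in E2 and 165, 169 and 170.3 CPM in TMG_E2. The groups did not overlap in either setting, and the gap was wide without E2 and narrow with it. The interaction was -0.41 ± 0.05 (adjusted p = 0.000715), between 0.50 ± 0.04 and 0.09 ± 0.03.

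Ache, which encodes acetylcholinesterase, an enzyme also carried on red cells (chromosome 5, 137288247 to 137294466), stood at 13.6, 13.9 and 11.96 CPM in Ctrl and 20.1, 22.3 and 19.9 CPM in TMG. After E2 the level was 398, 425 and 420.4 CPM, and after E2 with TMG 401, 447 and 389.9 CPM. The groups separated only without E2, and the difference between the settings was -0.66 ± 0.10 (adjusted p = 0.00311). Asic4, an acid-sensing ion channel family gene (chromosome 1, 75450510 to 75474340), stood at 8.19, 7.12 and 7.11 CPM in Ctrl and 12.4, 15.2 and 12.7 CPM in TMG. Cells given E2 had 12.2, 15.5 and 14.3 CPM and cells given both agents 11.1, 13.7 and 12.6 CPM. All TMG libraries lay within the range of the E2 libraries, and the interaction was -1.02 ± 0.16 (adjusted p = 0.00516). BC057675 stood at 21.3, 23.1 and 22.4 CPM in Ctrl, 31.7, 34.3 and 31.8 in TMG, 628, 688 and 649 in E2 and 665, 681 and 666 in TMG_E2. Its interaction was -0.52 ± 0.07 (adjusted p = 0.0014), with separate groups without E2 and overlapping groups with it.

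BB287469 had the lowest interaction among the genes called in every fit. This gene (chromosome 12, 87816577 to 87820676) stood at 6.77, 6.09 and 5.87 CPM in Ctrl and 15.8, 16.9 and 15.0 CPM in TMG. In E2 it stood at 348, 306 and 309.7 CPM and in TMG_E2 at 398, 318 and 342 CPM. Its TMG effect was 1.35 ± 0.13 without E2 and 0.14 ± 0.07 with it (interaction -1.21 ± 0.15, adjusted p = 0.000715). The genes Gm8300, Gm2016 and Gm5662 lie near it on chromosome 12, between 87514316 and 88274497, and had interactions of -1.03 ± 0.23, -1.21 ± 0.25 and -1.01 ± 0.20, called in 2, 3 and 3 of 12 fits that left out a library. These 3 went over the CPM minimum with E2 alone, and the call of Gm8300 was lost with RLE size factors (adjusted p = 0.0523), with library size alone (0.0531), with filterByExpr (0.0550) and with a weight per group (0.0553). Transcripts of the 4 genes share 91.3% to 99.3% of their aligned bases, so reads may have been shared out wrongly and these are not 4 independent results. Il1b, the gene of the inflammatory cytokine interleukin 1 beta, and Il1bos overlap on opposite strands of chromosome 2, and the strand setting of the counting is not stated here. Il1bos went from 3.87 ± 0.483 to 8.57 ± 0.489 CPM without E2 and from 24.1 ± 1.54 to 28.0 ± 1.14 CPM with it (-0.93 ± 0.13, adjusted p = 0.0018). Il1b, at 1.14 CPM in Ctrl and 2.27 CPM in TMG, had an interaction of -1.09 ± 0.25 (adjusted p = 0.0482), called in 1 of 12 fits that left out a library. That call was lost with RLE size factors (adjusted p = 0.0557), library size alone (0.0530) and filterByExpr (0.0680), and both genes went over the CPM minimum with E2 alone.

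A set of 3 genes rose with TMG in uninduced cells and fell with TMG in E2-treated cells. Il9r, the interleukin 9 receptor gene (chromosome 11, 32187544 to 32205283), had the smallest p of all 8273 genes. It stood at 24.0, 25.9 and 26.0 CPM in Ctrl and 28.5, 29.7 and 32.6 CPM in TMG. The E2 libraries were at 131, 135 and 133 CPM and the TMG_E2 libraries at 103, 105 and 101 CPM. The groups did not overlap in either setting: TMG was above Ctrl and TMG_E2 below E2. The effects were log2 0.26 ± 0.05 (adjusted p = 0.0118) and -0.37 ± 0.04 (adjusted p = 6.70e-05), and their difference was -0.62 ± 0.07 (adjusted p = 0.000715).

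Fabp5, a fatty acid binding protein gene (chromosome 3, 10012585 to 10016610), stood at 314, 315 and 312 CPM in Ctrl and 367, 362 and 366 CPM in TMG. Levels were 117, 120.3 and 129 CPM in E2 and 105, 94.3 and 108 CPM in TMG_E2. Again no groups overlapped, and the effects of 0.22 ± 0.04 and -0.25 ± 0.05 differed by -0.47 ± 0.06 (adjusted p = 0.00163). It stood lower in E2 than in Ctrl, and Il9r stood higher. Cep164, a centriole appendage gene needed for cilia, was the third, with effects of 0.22 ± 0.05 and -0.15 ± 0.04 (interaction -0.37 ± 0.06, adjusted p = 0.0147, called in 18 of 20 alternative fits). Ptpn12, a tyrosine phosphatase gene, moved the other way, falling without E2 (-0.13 ± 0.03) and rising with it (0.11 ± 0.03; interaction 0.24 ± 0.05, adjusted p = 0.0298, called in 11 of 20).

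**Figure D3:**
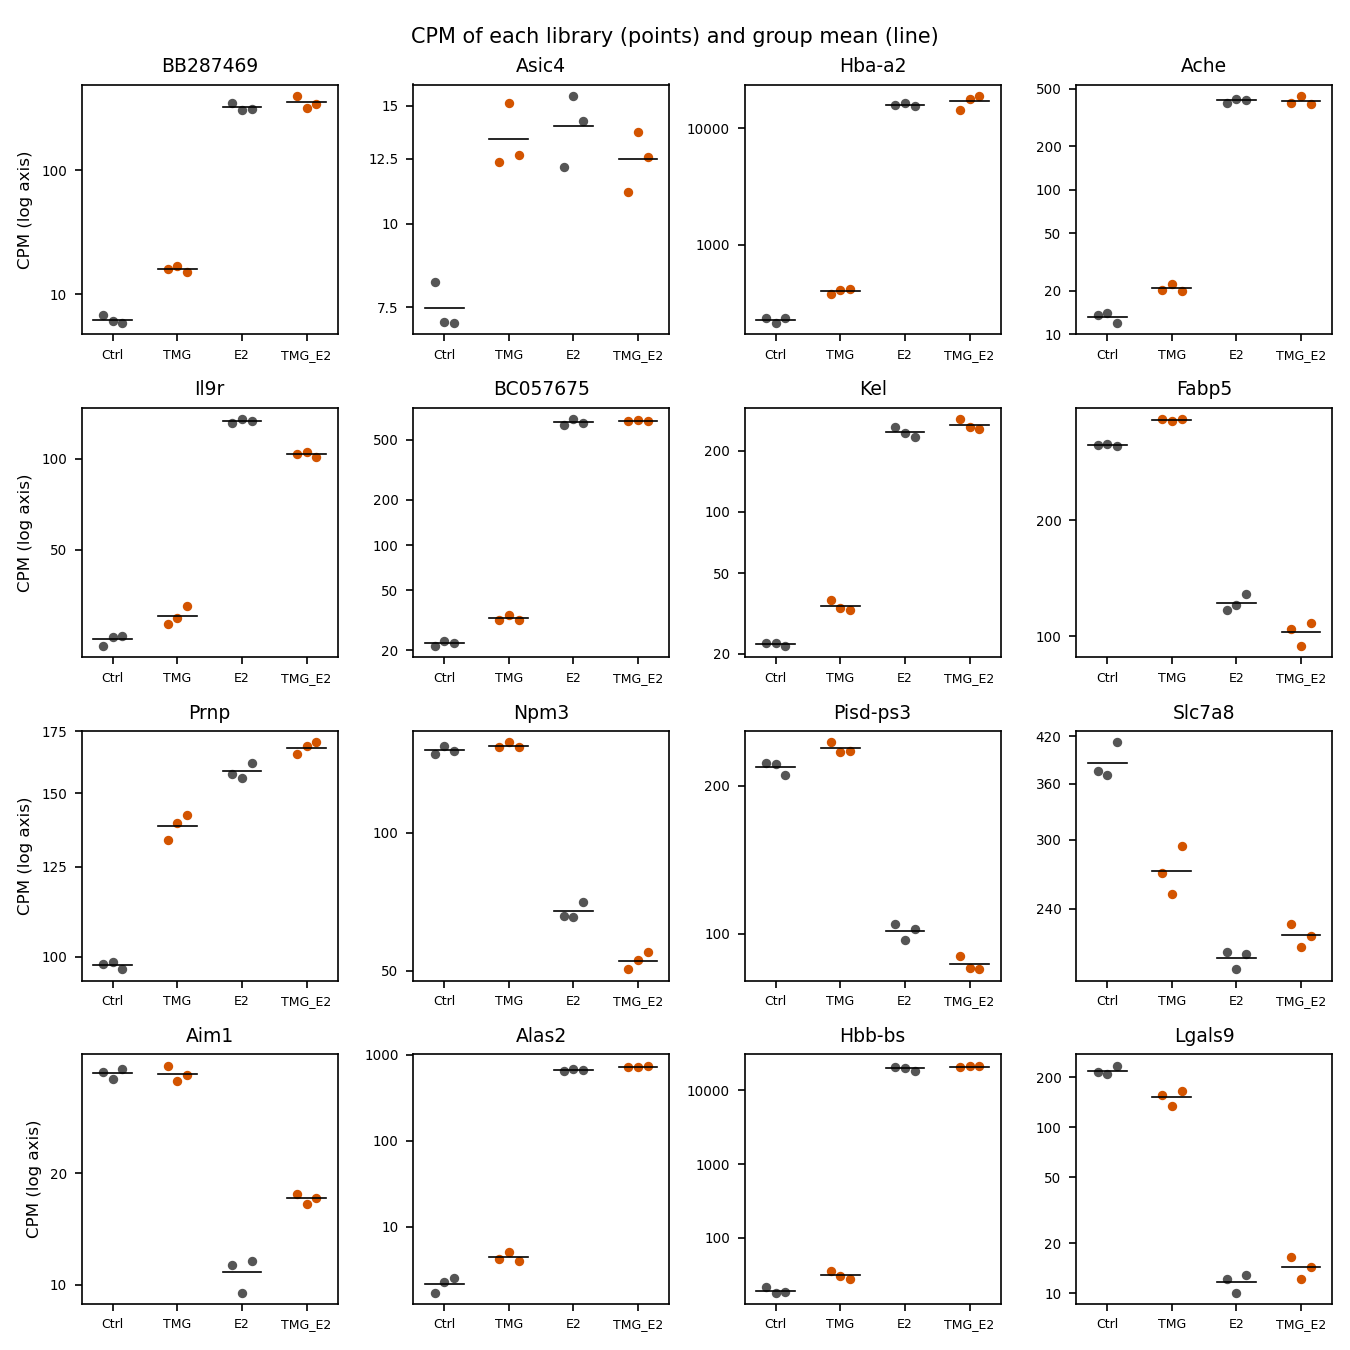
CPM of each library (log axes) by group for the 13 genes called in every alternative fit and for Alas2, Hbb-bs and Lgals9. Orange points are libraries with TMG, grey points those without, and lines are group means. Il9r shows TMG above Ctrl and TMG_E2 below E2. Slc7a8 shows the reverse, but its TMG change with E2 was not called.

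The second large set, 26 genes, fell with TMG in E2-treated cells and was not called in uninduced cells. Npm3, a nucleoplasmin family histone chaperone gene (chromosome 19, 45747734 to 45749565), stood at 149, 155 and 151 CPM in Ctrl and 154, 158 and 154 CPM in TMG. With E2 it stood at 65.9, 65.5 and 70.6 CPM, and with both agents at 50.3, 52.6 and 54.8 CPM. Ctrl and TMG overlapped, and all TMG_E2 libraries were below all E2 libraries. The interaction was -0.39 ± 0.06 (adjusted p = 0.00359), between 0.03 ± 0.04 and -0.36 ± 0.04. Pisd-ps3, a transcribed pseudogene of phosphatidylserine decarboxylase, stood at 223, 221 and 210.4 CPM in Ctrl and 245, 234 and 235 CPM in TMG. After E2 the level was 105, 97.4 and 102 CPM, and after E2 with TMG 90.0, 85.3 and 84.8 CPM. It fell with TMG in E2-treated cells (-0.22 ± 0.04, adjusted p = 0.00247) and stood at 0.13 ± 0.04 without E2 (adjusted p = 0.0647), an interaction of -0.35 ± 0.06 (adjusted p = 0.00656). As a pseudogene it may share reads with its relatives.

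Enzymes of nucleotide, malate and amine metabolism and a deubiquitinase of the nucleolus were in the same set. Impdh2, the rate-limiting enzyme of guanine nucleotide synthesis, went from 250.3 ± 5.46 to 195 ± 4.73 CPM with E2 and from 483 ± 9.97 to 445 ± 9.25 CPM without it (interaction -0.24 ± 0.05, adjusted p = 0.0298). Mdh1, cytosolic malate dehydrogenase, went from 92.6 ± 2.60 to 72.1 ± 2.78 CPM with E2 (-0.25 ± 0.06, adjusted p = 0.042). Maoa, monoamine oxidase A, had a TMG effect of -0.63 ± 0.10 with E2 (interaction -0.54 ± 0.12, adjusted p = 0.0398). Usp36, the nucleolar deubiquitinase, had one of -0.43 ± 0.06 (interaction -0.31 ± 0.07, adjusted p = 0.0482). Akr1e1, an aldo-keto reductase gene, had the steepest fall with E2 of the called genes, -0.99 ± 0.13, from 7.22 ± 0.188 to 3.62 ± 0.148 CPM, against -0.27 ± 0.10 without E2 (-0.72 ± 0.16, adjusted p = 0.0452). These 5 calls held in 3, 2, 1, 1 and 2 of 12 fits that left out a library, in the order given, and Maoa and Akr1e1 went over the CPM minimum without E2 alone.

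Of the genes called higher, Slc7a8 had the smallest p. It encodes LAT2, a transporter of large neutral amino acids (chromosome 14, 54722215 to 54781886), and stood at 375, 370.2 and 412 CPM in Ctrl and 269, 252 and 294 CPM in TMG. Cells given E2 had 209, 197 and 207 CPM and cells given both agents 228, 212 and 219.9 CPM. All TMG libraries were below all Ctrl libraries, and all TMG_E2 libraries were above all E2 libraries. The fall of -0.51 ± 0.05 without E2 (adjusted p = 2.82e-05) and the value of 0.11 ± 0.05 with E2 (adjusted p = 0.211) differed by 0.61 ± 0.08 (adjusted p = 0.000715).

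Slc3a2, the heavy chain that LAT2 pairs with at the cell surface, stood at 435, 444 and 461 CPM in Ctrl and 357, 368 and 407 CPM in TMG. In E2 it stood at 334, 345 and 351 CPM and in TMG_E2 at 343, 372 and 406 CPM. It was below Ctrl in every TMG library, while TMG_E2 and E2 overlapped, with TMG_E2 above E2 in all 3 same-numbered pairs (0.36 ± 0.08, adjusted p = 0.0398, called in 3 of 12 fits that left out a library). It was the single call among 17 tested genes of amino acid transport and synthesis (0.266% of all genes called higher). That list does not hold Slc7a8 and had a median of -0.0094.

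Lgals9, galectin 9 (chromosome 11, 78962979 to 78984924), stood at 214, 209 and 235 CPM in Ctrl and 157, 135 and 166 CPM in TMG. The E2 libraries were at 12.2, 10.1 and 12.9 CPM and the TMG_E2 libraries at 16.6, 12.1 and 14.4 CPM. The groups separated without E2 and overlapped with it, although each TMG_E2 library was above the E2 library of its number. It fell in uninduced cells (-0.52 ± 0.08, adjusted p = 0.000811), and with E2 it was at 0.31 ± 0.13 (adjusted p = 0.14). The interaction was 0.83 ± 0.15 (adjusted p = 0.0201), and the call was lost without E2 replicate 2 (adjusted p = 0.0680) and with a weight per group (limma voomWithQualityWeights, 0.0553). Optn, the autophagy receptor optineurin, went from 35.4 ± 0.695 to 28.7 ± 1.85 CPM without E2 and from 34.3 ± 1.77 to 38.6 ± 2.98 CPM with it (0.48 ± 0.09, adjusted p = 0.0207, called in 6 of 12 such fits). Tgfa, the growth factor TGF alpha, fell without E2 (-0.57 ± 0.07) and was at -0.02 ± 0.09 with it (interaction 0.54 ± 0.11, adjusted p = 0.0365, 2 of 12).

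A set of 13 genes called higher rose with TMG after E2 and was not called without E2. Aim1 stood at 37.6, 36.0 and 38.2 CPM in Ctrl and 39.1, 35.6 and 36.9 CPM in TMG. Levels were 11.3, 9.54 and 11.6 CPM in E2 and 17.6, 16.6 and 17.2 CPM in TMG_E2. The groups overlapped without E2, and every TMG_E2 library was above every E2 library and below every Ctrl library. The interaction was 0.67 ± 0.10 (adjusted p = 0.00311), between -0.0027 ± 0.06 and 0.67 ± 0.08. Fam198b (Gask1b in RefSeq), the single called gene with an interaction of 2-fold or more in this direction (1.05 ± 0.21, adjusted p = 0.0302), stood at 1.46, 0.748 and 0.809 CPM in E2 and 1.84, 1.76 and 1.74 CPM in TMG_E2. Its levels in Ctrl and TMG were 40.7 ± 0.575 and 35.5 ± 0.689 CPM. It was called in 2 of 12 fits that left out a library, and went over the CPM minimum without E2 alone. Mylk3, a myosin light chain kinase gene, went from 7.04 ± 0.631 to 11.2 ± 0.41 CPM with E2 (0.62 ± 0.13, 4 of 12), Ephx2, soluble epoxide hydrolase, from 6.03 ± 0.112 to 8.87 ± 1.43 (0.67 ± 0.14, 3 of 12) and Rap1gap2 from 4.82 ± 0.19 to 7.03 ± 0.848 (0.57 ± 0.12, 2 of 12). With a weight per group the calls of Fam198b (adjusted p = 0.0584), Mylk3 (0.109), Ephx2 (0.0646) and Rap1gap2 (0.0912) were lost.

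Fermt3, kindlin 3, which activates integrins of blood cells (chromosome 19, 6998958 to 7019469), stood at 12.7, 10.3 and 10.7 CPM in Ctrl and 8.63, 7.09 and 9.41 CPM in TMG. With E2 it stood at 9.62, 6.45 and 7.99 CPM, and with both agents at 11.6, 10.7 and 12.4 CPM. The groups did not overlap in either setting, with TMG below Ctrl and TMG_E2 above E2. Its interaction was 0.96 ± 0.19 (adjusted p = 0.0268, 6 of 12). Fermt3 was the single call among 14 tested adhesion and cytoskeleton genes (median 0.11), beside 0.266% of all genes called higher. Plek, pleckstrin, a protein kinase C substrate of blood cells, went from 126 ± 7.43 to 175 ± 9.33 CPM with E2 and from 64.0 ± 2.32 to 68.4 ± 3.91 CPM without it (0.38 ± 0.08, adjusted p = 0.0298, 5 of 12). Stat3, a cytokine-activated transcription factor, was the single call among 15 tested JAK-STAT genes (median -0.01, 0.266% of all genes called higher). It went from 102 ± 3.30 to 124 ± 6.95 CPM with E2 and from 133 ± 3.31 to 133 ± 3.65 CPM without it (0.28 ± 0.06, adjusted p = 0.0452, 2 of 12), a call lost with library size alone (0.0622) and with filterByExpr (0.0528). Inpp5d, the SHIP1 phosphatase that restrains cytokine signalling, was at 0.24 ± 0.05 (adjusted p = 0.0452, 2 of 12).

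The enzymes of O-GlcNAc cycling and the listed erythroid transcription factor and progenitor genes were not called. Oga (listed as Mgea5), the target of Thiamet-G, stood at 224 ± 5.34 CPM in Ctrl and 288 ± 6.98 in TMG, and at 328 ± 10.4 in E2 and 435 ± 6.99 in TMG_E2. It rose in both settings (0.36 ± 0.04 and 0.41 ± 0.03), with an interaction of 0.05 ± 0.05 (95% interval -0.06 to 0.15, adjusted p = 0.822). Ogt was at 0.05 ± 0.06 (95% interval -0.08 to 0.17, adjusted p = 0.869). None of the 12 tested genes of O-GlcNAc cycling and the hexosamine pathway was called, and their values ran from -0.13 to 0.11. Aox4, an aldehyde oxidase gene, fell in both settings (-1.14 ± 0.08 without E2 and -1.20 ± 0.08 with it). The interaction of -0.06 ± 0.12 (95% interval -0.31 to 0.19) had no stable sign over the alternatives.

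Gata1 was at -0.13 ± 0.06 (95% interval -0.25 to -0.01, adjusted p = 0.399), and its counts may include reads of the introduced fusion. Klf1, an erythroid transcription factor gene that GATA-1 activates, was at -0.18 ± 0.08 (95% interval -0.34 to -0.02, adjusted p = 0.361). None of 18 tested erythroid transcription factor genes was called (median -0.06). Gata2, the progenitor factor gene that GATA-1 represses, stood at 555, 489 and 528 CPM in Ctrl and 477, 474 and 510.3 CPM in TMG. After E2 the level was 19.9, 19.6 and 22.7 CPM, and after E2 with TMG 23.3, 26.2 and 27.2 CPM. The interaction of 0.40 ± 0.10 did not pass the test (adjusted p = 0.0612), but did with DESeq2 (0.00358), with no filter on low counts (0.00210), with the replicate number as a block (0.0164) and without TMG_E2 replicate 1 (0.0237). None of 11 tested progenitor genes was called (median 0.09).

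Values of 4 of the lists without a called member are given as a description, and no rule set which lists are shown. A count of signs can be lopsided where values lie near 0. Of 14 NuRD complex genes, a list also without a call, 13 had an interaction below 0 with a median of -0.02. Of 24 ribosome biogenesis genes, 21 had an interaction below 0 (median -0.10), among them Polr1b, a subunit of RNA polymerase I, at -0.24 ± 0.08 (adjusted p = 0.185) and the methyltransferase gene Nop2 at -0.23 ± 0.07 (adjusted p = 0.141). In that list 11 genes fell with TMG in E2-treated cells (7.14% of all genes) and 0 in uninduced cells (2.14%). Of 22 oxidative stress genes, 18 were above 0 (median 0.07), with Srxn1, sulfiredoxin, at 0.26 ± 0.06 (adjusted p = 0.0599) and Gclm, the modifier subunit of glutathione synthesis, at 0.23 ± 0.06 (adjusted p = 0.0698). In the other direction Prdx2, an abundant peroxiredoxin of red cells, was at -0.27 ± 0.07 (adjusted p = 0.0671). With TMG, 7 genes of the list were called higher with E2 (5.61% of all genes) and 1 without it (3.01%). Lysosome genes lay above 0 in 15 of 20 cases (median 0.09). TMG raised 8 of them with E2 (5.61% of all genes) and 1 without it (3.01%). Of 22 sterol synthesis genes, TMG raised 6 without E2 (3.01% of all genes) and 12 with it (5.61%), and the median interaction was 0.04. Over all genes tested, 4499 values were below 0 and 3774 above.

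**Figure D4:**
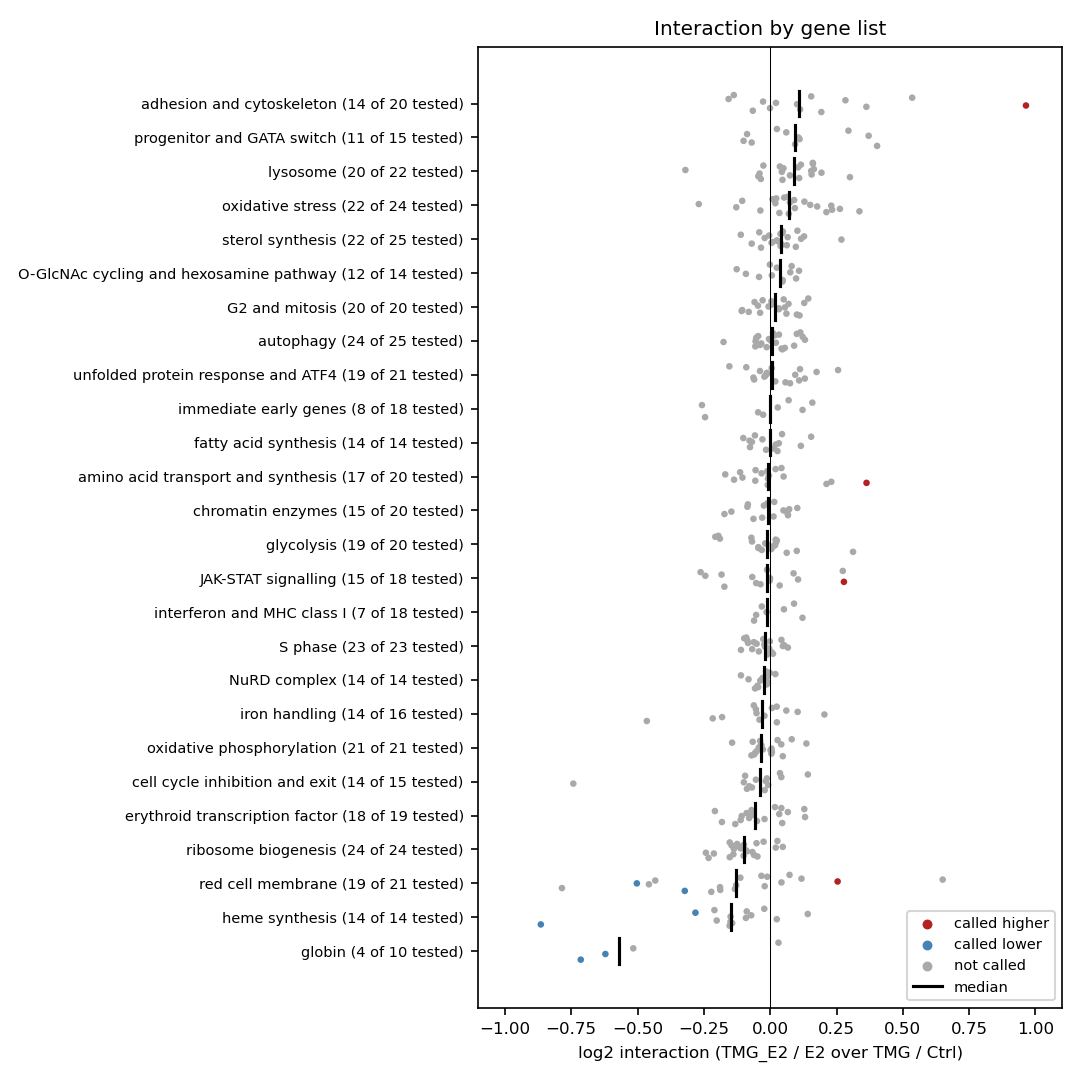
Each point is the log2 interaction of a tested member of a gene list (26 of 27 lists), with called genes in colour and the list's median as a black line. Globin, heme synthesis and red cell membrane genes have the lowest medians, and most other lists lie near 0. In that order, 2 of 4, 1 of 14 and 4 of 19 tested members went over the CPM minimum with E2 alone (229 of 8273 over all genes).

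Other blood cell types were read from their marker lists. Summed mast cell markers were 566 to 605 CPM in Ctrl, 564 to 593 in TMG, 88.7 to 95.0 in E2 and 91.1 to 104 in TMG_E2. Most of this sum is Kit, which erythroid progenitors also express, and 4 of the 12 markers (Mcpt8, Mcpt4, Tpsb2, Mrgprb1) were at 0 in every library. The less abundant markers Cpa3, a mast cell protease, and Ms4a2, a subunit of the IgE receptor, fell with TMG without E2. Cpa3 was at 9.95, 14.8 and 22.2 CPM in Ctrl and 5.57, 9.35 and 10.8 CPM in TMG (log2 -0.87 ± 0.24, adjusted p = 0.042). Ms4a2 was at 12.1, 13.3 and 20.1 CPM in Ctrl and 7.37, 9.51 and 12.2 CPM in TMG (log2 -0.64 ± 0.18, adjusted p = 0.0491). Both were at most 0.14 CPM in every library with E2. Of the 4 tested mast cell markers, 3 went over the CPM minimum without E2 alone, so their TMG effects with E2 rest on few counts. The interactions of the 4 ran from -0.61 to 1.68, and 0 had an unadjusted p under 0.05 (edgeR), so nothing is read from them. Il1rl1, more abundant than Cpa3 or Ms4a2, went the other way without E2 and was not called, at 57.5, 56.7 and 61.2 CPM in Ctrl and 66.2, 67.4 and 72.3 CPM in TMG. Kit stood at 485, 481 and 501 CPM in Ctrl and 484, 482 and 497 CPM in TMG. Of the 4 tested markers, TMG without E2 lowered 2 (2.14% of all genes) and raised 0 (3.01%). Megakaryocyte markers summed to 42.9 to 97.9 CPM, largely Nbeal2, with 4 of 13 at 0. Granulocyte and macrophage markers summed to at most 5.59 CPM and lymphoid markers to at most 16.8 CPM, of which up to 16.1 CPM was Ptprcap, which also fell with TMG without E2 (log2 -0.37 ± 0.10, adjusted p = 0.0435). The 6 markers of these lists that passed the expression filter were not called for the interaction, and their part in the interactions above was not tested. The sum of erythroid markers was higher in every TMG library than in every Ctrl library. The list itself holds Hba-a2, Hbb-bs and Alas2, so its sum is not separate from the results for those genes. Its member Hba-a2 stood at 244, 219 and 240 CPM in Ctrl and 383, 417 and 423 CPM in TMG on this scale. Tfrc, the most abundant member there, overlapped, at 999, 1000 and 1016 CPM against 978, 1055 and 989 CPM. Of the 10 members, TMG without E2 raised 5 (3.01% of all genes) and lowered 0 (2.14%). The part of the marker sum in the interactions was not tested.

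**Figure D5:**
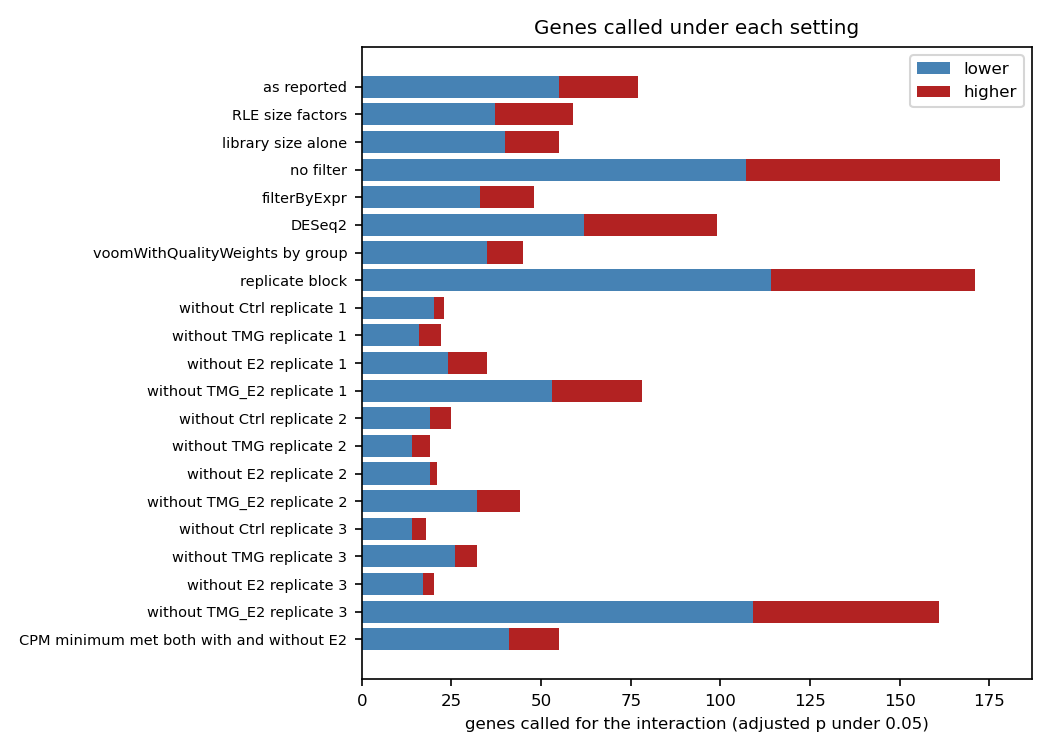
Bars give the number of genes called for the interaction under each alternative fit, lower in blue and higher in red, against the reported 77. Counts run from 18 without Ctrl replicate 3 to 178 with no filter on low counts, and lower calls outnumber higher calls in each fit shown.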

How the data were processed

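Stranded libraries of polyadenylated RNA were read as pairs. FastQC 0.11.2, RSEM 1.2.22, Bowtie2 and the build GRCm38 are named in the submitters' processing notes. Per the file headers, the deposited expected counts are RSEM estimates per gene, and the deposited TPM values are scaled by the authors for length and depth. TPM served only to set levels of different genes side by side.

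Expected counts were rounded and fitted with edgeR 4.0.16 in R 4.3.3: TMM scaling, genes with CPM over 10 in at least 2 libraries, 1 mean per group, quasi-likelihood tests and Benjamini-Hochberg adjustment. CPM values are TMM-scaled, except those of marker lists, which use library size alone. The SE comes from the F statistic. Library depth puts 3 counts at 0.13 to 0.17 CPM. The globin copies Hba-a1 and Hbb-bt were not analysed here. The script was tested on simulated data.

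Named genes are the 8 highest and 8 lowest called interactions, the 4 smallest p in each direction, up to 2 called members per list and Gata1, Gata2, Klf1, Ogt, Oga and Aox4. 1 gene that this rule names is not reported here. Others were named after their values were seen. The members and lists were chosen with earlier results of these data known. Alternatives were 2 scalings, 3 filters (1 chosen after seeing the data), DESeq2 1.42.0, limma 3.58.1, a replicate block and leaving out each library. Same-numbered E2 and TMG_E2 libraries deviated together (correlations 0.318, 0.202 and 0.211), so their numbers were taken to pair them, from the data alone. The rule was a minimum for the lowest of the 3 correlations. TMG with TMG_E2 (0.493, 0.155 and 0.331) and TMG with E2 (0.178, 0.117 and 0.273) also met this rule. Ctrl with TMG (0.0988, 0.0420 and 0.204), with E2 (0.0974, 0.252 and 0.110) and with TMG_E2 (-0.0045, -0.131 and 0.167) did not. The minimum lay between 0.0974 and 0.117, so Ctrl with E2 missed it narrowly. Each of 12 libraries, Ctrl included, correlated best with its own number, so the rule does not show Ctrl to be unpaired.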

Additional observations from a re-analysis of the deposited data

Results flagged for a closer look

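The genes below are the named ones whose TMG effect differed between cells without and with E2 by the test of the difference itself (edgeR, adjusted p under 0.05). Values are log2 interactions, and negative values mean a less positive or more negative TMG effect with E2.

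Of erythroid genes, Hba-a2 was at -0.71, Hbb-bs at -0.62, Hbq1b at -0.95, Alas2 at -0.86, Abcb10 at -0.28, Kel at -0.50 and Sptb at -0.32. Of the near-identical genes on chromosome 12, BB287469 was at -1.21, Gm2016 at -1.21, Gm8300 at -1.03 and Gm5662 at -1.01. The overlapping pair on chromosome 2 was at -1.09 for Il1b and -0.93 for Il1bos. Among the other genes with a negative value, Il9r was at -0.62, Prnp at -0.41, Asic4 at -1.02 and BC057675 at -0.52. Of the genes in this paragraph, Hbq1b, Alas2, Gm2016, Gm8300, Gm5662, Il1b and Il1bos went over the CPM minimum with E2 alone.

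Among positive values, Fam198b was at 1.05, Fermt3 at 0.96, Lgals9 at 0.83, Aim1 at 0.67, Ephx2 at 0.67, Mylk3 at 0.62, Slc7a8 at 0.61 and Rap1gap2 at 0.57. Smaller positive values were those of Optn (0.48), Slc3a2 (0.36) and Stat3 (0.28).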

How the results depend on the processing

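The count of 77 called interactions was 59 with RLE size factors, 55 with library size alone, 99 with DESeq2 and 55 with the expression minimum required both with and without E2, a filter chosen after seeing the data. It was 178 with no filter on low counts, 48 with filterByExpr and 45 with voom weights per group, and 18 to 161 over the fits that left out 1 library. With the replicate number as a block it was 171, and each of 12 libraries correlated best with its own number, a hint from the data and not from the design. The TMG count without E2 was 810 with voom weights, 675 with the block and 196 to 636 without 1 library. The TMG count with E2 was 626 with voom weights and 656 to 1160 without 1 library. The block took it from 1055 to 1454. The 11 called members of the gene lists became 21 with no filter, 7 with filterByExpr, 26 with the block and 2 to 19 without 1 library. Of 690 alternatives for single named genes 513 kept direction and call, 170 lost the call, 4 gained it (all Gata2) and 3 changed sign. The sign changes were those of Aox4 (0.014, 0.0096 and 0.0023 without TMG_E2 replicate 1, E2 replicate 2 and TMG replicate 3, within a range of -0.13 to 0.014). As a difference of changes in CPM, named genes called lower were positive for BB287469 (22.1), Gm8300 (3.04), BC057675 (5.13), Hba-a2 (977), Hbb-bs (1250), Alas2 (68.0), Abcb10 (22.6) and Kel (9.83), and all but that of Alas2 were within 2 SE of 0. The cause of these differences between settings was not tested. With 3 libraries a group, the median SE of the interaction was 0.08 in log2 units.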

Other observations

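A set of 4 genes that host small nucleolar RNAs in their introns was among those that fell with TMG in E2-treated cells and not without E2: Snhg12, Snhg4, Snhg5 and Snhg1. This family was looked at after its values were seen, so it gets no test. Snhg12 went from 17.3 ± 0.488 to 12.5 ± 0.908 CPM with E2 and from 35.3 ± 2.44 to 35.0 ± 1.10 CPM without it (-0.45 ± 0.10, adjusted p = 0.0391). Snhg4 went from 20.1 ± 1.40 to 15.0 ± 0.967 CPM with E2 (-0.43 ± 0.08, adjusted p = 0.0249), and Snhg5 from 40.2 ± 1.72 to 32.7 ± 0.604 CPM (-0.31 ± 0.06, adjusted p = 0.0294). Snhg1, at 133 ± 3.93 and 121 ± 2.22 CPM, had an interaction of -0.23 ± 0.05 (adjusted p = 0.0454). Over the 12 fits that left out a library these calls held in 3, 4, 2 and 2, in the order named first. Of 11 tested genes of this name 10 were below 0 (4499 of 8273 over all genes; median -0.24) and 4 were called lower (0.665% of all genes). With TMG, 5 fell in E2-treated cells (7.14% of all genes) and 0 in uninduced cells (2.14%). Snhg14, a long transcript of an imprinted region, was the one above 0, at 0.14 ± 0.12.

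Slc3a2 has several light chains besides Slc7a8. Slc7a5, the LAT1 transporter, fell with TMG without E2 (-0.25 ± 0.05, adjusted p = 0.0123) and was at -0.04 ± 0.05 with E2, with an uncalled interaction of 0.21 ± 0.08 (adjusted p = 0.267). Slc7a6 fell with TMG in E2-treated cells (-0.58 ± 0.10, adjusted p = 0.00144) and had an uncalled interaction of -0.47 ± 0.14 (adjusted p = 0.148). Slc7a7 and Slc7a11 were at 0.11 ± 0.11 and 0.23 ± 0.12, also uncalled. These light chains were likewise looked at after the called genes were known.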
